A study of Mus musculus with 18 samples.

Results

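Small nucleolar RNAs were measured in mouse liver as 69 genes with a transcript cluster (the probe set of 1 transcription unit) of their own, out of 65956 transcript clusters on the array. They were found by symbol: every name in the platform's table of probes and genes that starts with Snord, Snora or Scarna was taken, and for a symbol with several clusters the one with the highest mean over the 18 arrays was kept. The rule matched 121 symbols, but 52 of them lay only on 45 clusters that the table also assigns to other genes. Such a cluster cannot be given to 1 gene, so these symbols were left out of the 69. Of the 69 genes, 45 are Snord, 18 are Snora and 6 are Scarna.

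The livers came from male C57BL/6J mice in 6 groups of 3, with 1 animal per array. HFN mice received a high-fat diet (53% of energy as fat) and, after 8 weeks, NAD+ at 50 mg/kg by daily intraperitoneal injection at ZT11 for 3 weeks. HF mice had the same diet and CD mice were kept on chow, the diet of the control group, and both received saline by injection in place of NAD+. ZT counts hours from lights on in a 12-hour light and 12-hour dark cycle, and each group was sampled at ZT18, in the dark phase, and at ZT6, in the light phase, with food freely available. Liver is a mixture of cell types, so in these bulk samples fewer cells of a type and less RNA per cell cannot be told apart.

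Small nucleolar RNAs work as guides. Box C/D RNAs (Snord genes) direct the methylation of ribose in ribosomal RNA through the methyltransferase fibrillarin, box H/ACA RNAs (Snora genes) direct the conversion of uridine to pseudouridine through dyskerin, and the related Scarna RNAs act in Cajal bodies on the small nuclear RNAs of the spliceosome. A few members, such as U17 (Snora73a and Snora73b), U14 (Snord14 genes) and U8 (Snord118), serve in the cleavage of the ribosomal precursor. Most mammalian guides are cut out of the introns of host genes, many of which encode ribosomal proteins or translation factors. An array probe placed on such a guide cannot tell the finished small RNA from unspliced RNA of its host.

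All values are deposited log2 signals, and a log2 difference of 1 is a doubling. Signals of different probe sets depend on their probes and do not rank the genes by amount. The mean of a gene over the 18 arrays lay between 3.76 and 17.9, and 60 of the 69 genes exceeded the median of the negative-control probe sets on every array. Those medians ran from 4.58 to 5.01. In contrast, 3 genes lay below the control median on every array, namely Scarna8, Snora35 and Snord88c, and 6 more crossed it (Snord64, Snord73a, Snord85, Snord90, Snord92 and Snord118). Per array, 61 to 66 of the 69 genes lay above the control median, against 34.8% to 42.9% of all transcript clusters. RefSeq (assembly GRCm38.p6) lists the members with lengths from 28 to 248 bases and a median of 77. Snora genes were the longest class, with a median of 120.5 bases, against 68 for Snord and 66.5 for Scarna genes.

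Hepatocyte markers were present as the tissue label requires, with all 10 measured markers above the control median on every array, whereas 7 of 8 neuron markers were below it on every array. The imprinted Snord113, Snord114 and Snord115 families had no member on a cluster of their own, and Snord116 was found only on 3 shared clusters. These 3 clusters held identical values, between 4.26 and 5.96, and none of them was above the control median on all arrays. Snora35, which lies within Htr2c, a serotonin receptor gene known from brain, ranged from 3.59 to 4.21.

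The members varied together from array to array, also among replicates of 1 group. A gene's range over the 18 arrays was 2.02 in the median, and it was over 2 for 36 of the 69 genes, over 3 for 18 and over 4 for 10. Each member was correlated over the 18 arrays with the median of the others (each taken relative to its own mean). This correlation exceeded 0.5 for 50 of the 69 genes and 0.8 for 29, and it was negative for 2, Snora2b and Snord4a. These correlations are descriptions over arrays that each share 1 RNA preparation and 1 normalization.

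**Figure D1:**
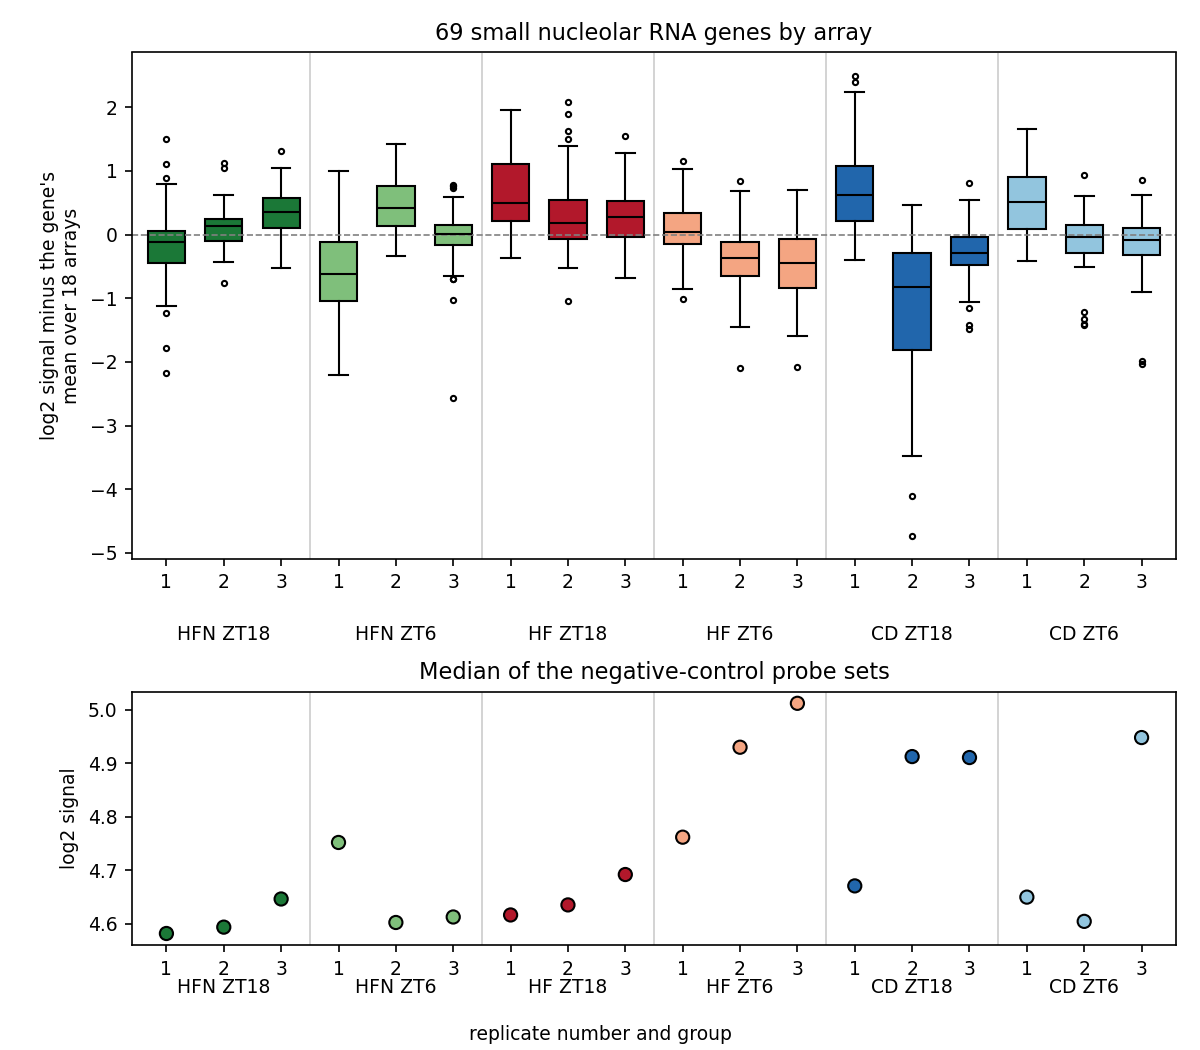
Upper panel: log2 signal of the 69 genes relative to each gene's own mean over 18 arrays, as 1 box per array (box, quartiles; line, median; whiskers, 1.5 times the box height; circles, values beyond). Lower panel: median log2 signal of the negative-control probe sets on the same arrays. Within the CD ZT18 group, replicate 1 had the highest median of all arrays (0.62) and replicate 2 the lowest (−0.83).

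The extremes stood side by side in 1 group. CD ZT18 replicate 1 held the highest value of 22 members, and CD ZT18 replicate 2 held the lowest value of 37. The difference between these 2 chow-fed animals, replicate 1 minus replicate 2, was 1.5 in the median over the members and reached 6.61 for Snora73b. It exceeded 1 for 42 members and 2 for 26. The median deviation of the members was 0.62, −0.83 and −0.28 on CD ZT18 replicates 1, 2 and 3. The next lowest array was HFN ZT6 replicate 1, at −0.62. Snord, Snora and Scarna genes shared the pattern, the array medians of Snord and Snora correlating at r = 0.89 (Spearman's rho 0.94) and those of Snord and Scarna at r = 0.76 (rho 0.71) over 18 arrays.

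**Figure D2:**
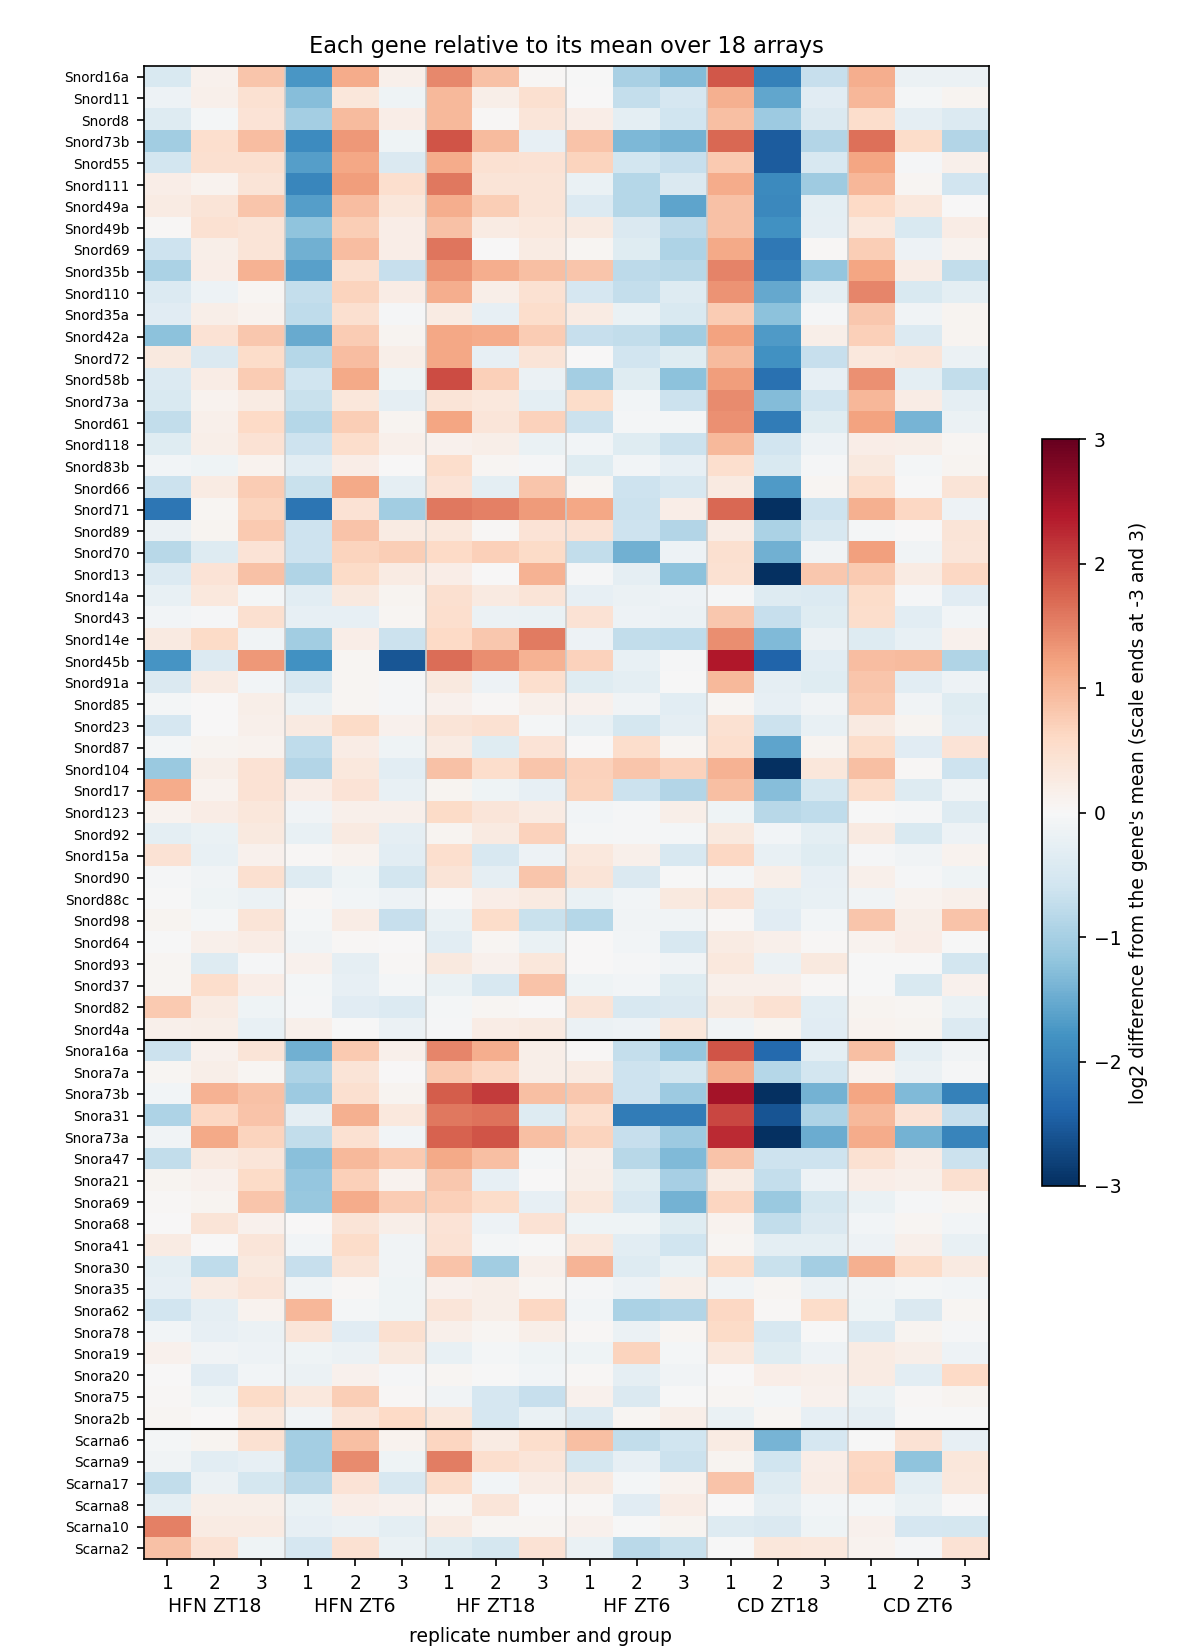
Log2 signal of each of the 69 genes (rows) relative to its mean over the 18 arrays (columns, by group and replicate number), with Snord, Snora and Scarna genes separated by lines and sorted within a class by their correlation with the other members. Red is higher and blue lower than the gene's mean, and colours end at −3 and 3. CD ZT18 replicate 2 is blue in most rows, and CD ZT18 replicate 1, HF ZT18 replicate 1 and CD ZT6 replicate 1 are mostly red.

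Snora73b, the U17 RNA, had the widest range of any member, 6.61. Its log2 signal was 12.84, 13.98 and 13.80 in HFN livers at ZT18 and 11.84, 13.41 and 13.01 at ZT6. It was 14.75, 15.02 and 13.84 in HF livers at ZT18, and 13.74, 12.31 and 11.83 at ZT6. In CD livers it was 15.43, 8.82 and 11.51 at ZT18, and 14.12, 11.60 and 10.90 at ZT6. The CD ZT18 animals thus held both the highest and the lowest value of the series. Its paralog Snora73a, also within Snhg3, ranged over 5.51 and followed Snora73b at r = 0.99 over 18 arrays, and their probes may not tell the 2 copies apart.

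Snord104, a box C/D RNA, gave the highest mean signal among Snord genes, 17.90, and the widest range among them, 5.78. It read 16.77, 18.06 and 18.33 in HFN livers at ZT18, 18.76, 18.42 and 18.72 in HF livers at ZT18, and 18.95, 13.16 and 18.25 in CD livers at ZT18. At ZT6 it read 17.01, 18.21 and 17.57 in HFN, 18.58, 18.73 and 18.59 in HF and 18.79, 17.93 and 17.27 in CD livers. A single array, CD ZT18 replicate 2, accounts for most of that range.

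The other members with high mean signals or wide ranges behaved alike. Among Snord genes, Snord42a (within Rpl23a) had a mean of 14.78 and a range of 2.90, Snord71 a mean of 14.50 and a range of 5.18, and Snord45b (within Rabggtb) a range of 4.96. Among Snora genes, Snora16a (within Snhg12) had a mean of 14.72 and a range of 4.22, and Snora31 (within Tpt1) a range of 4.60. The lowest value of Snord42a, Snord71, Snora16a and Snora31 was on CD ZT18 replicate 2. That of Snord45b was on HFN ZT6 replicate 3, where it read 6.08 against 6.24 on CD ZT18 replicate 2.

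The Scarna genes varied less, with a median range of 1.85. Scarna2, which in human cells guides modification of the U2 small nuclear RNA, had a mean of 13.22 and a range of 1.69, and Scarna17 had a mean of 12.39 and a range of 1.67. Scarna6 had a mean of 10.004 and a range of 2.30, and it was lowest, at 8.62, on CD ZT18 replicate 2. Scarna10, known in human cells as a guide for the U5 small nuclear RNA, had a mean of 6.54 and a range of 2.02. Scarna9 had a mean of 6.39 and the widest range of the class, 2.76. Scarna8, with a mean of 3.76, stayed below the control median throughout. Scarna2 and Scarna10 moved little with the other members (r = 0.14 each), and Scarna6 followed them (r = 0.82).

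The members ran opposite to the background of the arrays. Over 18 arrays, the median deviation of the members correlated with the negative-control median at r = −0.67 (rho −0.48), at −0.67 without the 2 arrays farthest from the middle of the control medians, and at −0.65 after the group means were taken out. The 5 arrays with the highest control medians, 4.91 to 5.01, were HF ZT6 replicates 2 and 3, CD ZT18 replicates 2 and 3, and CD ZT6 replicate 3. On these, 5, 12, 10, 15 and 29 of the 69 members lay above their own mean. HFN ZT6 replicate 1 had 10 above their mean at a control median of 4.75, so low member signals were not limited to these 5 arrays. Neat1, a long noncoding RNA of nuclear paraspeckles, was at 11.09 to 15.16 on the 5 arrays and at 8.35 or less on the others. It correlated with the members at r = −0.64 (rho −0.36). The part of these array differences in any result below was not tested beyond the values given beside it.

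Several other classes of noncoding RNA showed the same array pattern. Among 893 further clusters that RefSeq classes as small nucleolar RNA, mostly predicted genes, 139 had a mean over 6, and their median deviation followed that of the members at r = 0.91 (rho 0.93) over 18 arrays. For 381 small nuclear RNA clusters with a mean over 6 it was r = 0.81 (rho 0.82), for 88 ribosomal RNA clusters 0.67 (rho 0.69) and for 4 Y RNA clusters 0.70 (rho 0.58). Clusters of 114 microRNA genes moved the other way, at r = −0.72 (rho −0.66), and 7187 protein-coding clusters were only weakly related, at r = 0.28 (rho 0.31). The median of the standard deviation within groups was 0.70 for the 53 members with a mean over 6, against 0.29 for those 139 small nucleolar RNA clusters, 0.50 for the small nuclear RNA clusters and 0.17 for the protein-coding clusters.

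Host signals varied less than those of their guides in most pairs. RefSeq spans place 65 of the 69 members within a longer gene (strand was not available), and 34 of these hosts had a cluster of their own, which gave 37 pairs. The host's range over the 18 arrays was 0.58 in the median, and the member's range was the wider one in 34 of 37 pairs. The pairs were not matched for signal, and among the members the range was wider at higher mean signal (rho = 0.75). Some hosts had a mean below all control medians, such as Htr2c (4.04) and Snhg14 (4.11), where little change can be measured. Others had a high mean and a narrow range, such as Eef2 (16.89 and 0.54) and Rpl4 (16.27 and 0.65). The correlation within a pair over 18 arrays was 0.16 in the median, from −0.48 for Snora78 and Snhg9 to 0.83 for Snord16a and Rpl4. Snora31 ranged over 4.60 and its host Tpt1 over 0.22, at a mean signal of 6.63 for the Tpt1 cluster. As a set of 34, however, the hosts moved with the members on this smaller scale: their median deviation did follow that of the small RNAs at r = 0.69 (rho 0.65) over 18 arrays. Hspa8, the host of Snord14e, lay close to the upper end of the scale, where no change can be measured. The 45 clusters shared with other genes also varied little, with a median range of 0.71, and none passed the test in any comparison.

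**Figure D3:**
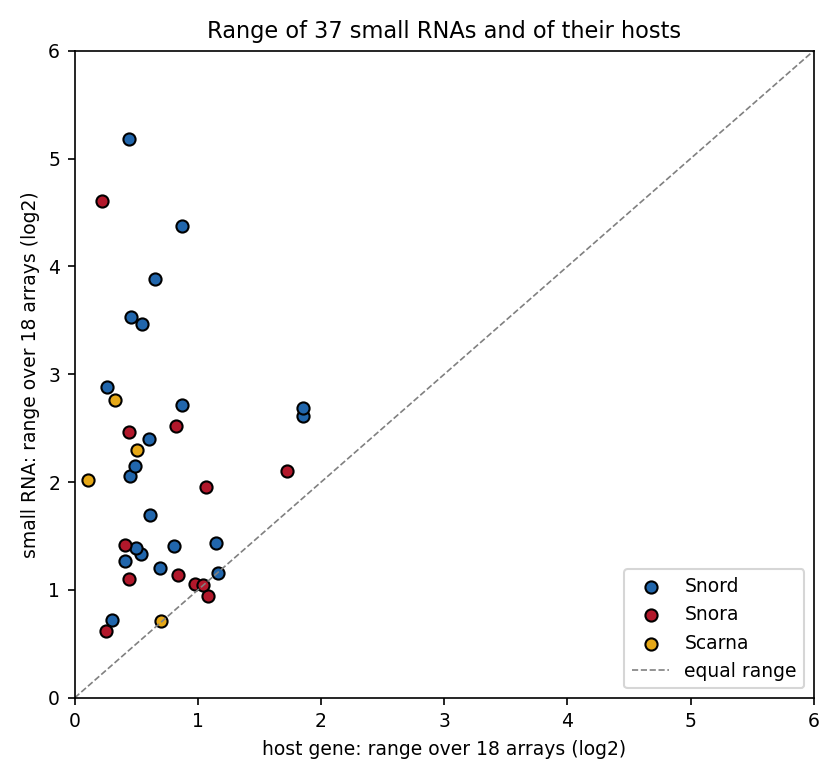
Range over the 18 arrays (log2) of 37 small RNAs, vertical axis, against that of the gene in whose RefSeq span they lie, horizontal axis. Points above the dashed line are small RNAs that varied more than their host, which held for 34 of 37 pairs. The pairs were not matched for mean signal.

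Members of 1 host did not always move together. Snord49a and Snord49b (within 2410006H16Rik) correlated at r = 0.92 and Snord73a and Snord73b (within Rps3a1) at 0.90, but each of these pairs holds copies of like sequence. Snord11 and Snord70, both within Nop58, correlated at 0.78. Snord42a and Snord4a, both within Rpl23a, were unrelated (r = −0.17), with ranges of 2.90 and 0.77. Snord82 and Snora75, both within Ncl, the gene of nucleolin, were also unrelated (r = −0.09). Across the 69 members, the range did not follow RNA length (rho = −0.05) and was wider for members with higher mean signal (rho = 0.75).

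Against this spread, differences between groups were small. For 55 of the 69 members the highest and the lowest of the 6 group means lay less than 2 within-group standard deviations apart. That share was not computed over all clusters, so the count does not set the members apart from other genes. A linear model was fitted with limma over all transcript clusters. A gene was called where its log2 difference exceeded 0.32 in either direction and its p, adjusted by Benjamini and Hochberg's method, was under 0.05, and counts of unadjusted p under 0.05 below use the same limit on the difference. By this rule 1 gene was called, Snord123, in 2 of 11 comparisons.

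The first question was whether the members differ between night and day. In HF livers, 62 of the 69 genes had a higher mean at ZT18 and the median log2 difference was 0.58, against a median of 0.00 over all clusters (0.35 over the 139 other small nucleolar RNA clusters). None was called with limma, where 0.866% of all clusters were called, and 11 had an unadjusted p under 0.05, all higher at ZT18 (15.9%, against 3.57% of all clusters). For 26 members every ZT18 value was above every ZT6 value (37.7%, against 10% of all clusters). The HF ZT6 group held 2 of the 5 arrays with high control medians and the HF ZT18 group none. With the control median as a covariate the median difference was 0.00, and without those 5 arrays, which left 1 HF ZT6 animal, it was 0.27. Markers of other cells moved in the same comparison. The mean log2 signal of 12 Kupffer cell markers was 8.09 to 8.23 at ZT18 and 8.78 to 9.40 at ZT6 in HF livers. Of the 12, 9 were lower at an unadjusted p under 0.05 (5825 of 65956 clusters passed in either direction), none called with limma. That of 10 endothelial markers was 8.65 to 8.70 at ZT18 and 9.04 to 9.06 at ZT6, with 4 lower by the same rule, and that of 10 hepatocyte markers was 18.14 to 18.35 at ZT18 and 18.36 to 18.55 at ZT6. Their part in the members' difference was not tested.

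In HFN livers the median difference was 0.11, none was called with limma (0.246% of all clusters were), and 2 had an unadjusted p under 0.05, both higher at ZT18 (2.84% of all clusters). Of the members, 3 were separated between the times, all higher at ZT18 (6.67% of all clusters were). The sign of the HFN median was not stable, at −0.03 with the covariate, −0.15 without HFN ZT6 replicate 1 and 0.41 without HFN ZT6 replicate 2. In CD livers, 13 of the 69 genes had a higher mean at ZT18, and the median difference was −0.25. None was called (0.376% of all clusters were), 2 had an unadjusted p under 0.05, both lower at ZT18 (2.17% of all clusters), and 1 was separated, Snord98, lower at ZT18 (4.84% of all clusters were). The CD median was −0.71 without CD ZT18 replicate 1 and 0.09 without CD ZT18 replicate 2, and 0.43 without the 5 arrays, where 1 CD ZT18 animal remained, so its sign rests on single animals.

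**Figure D4:**
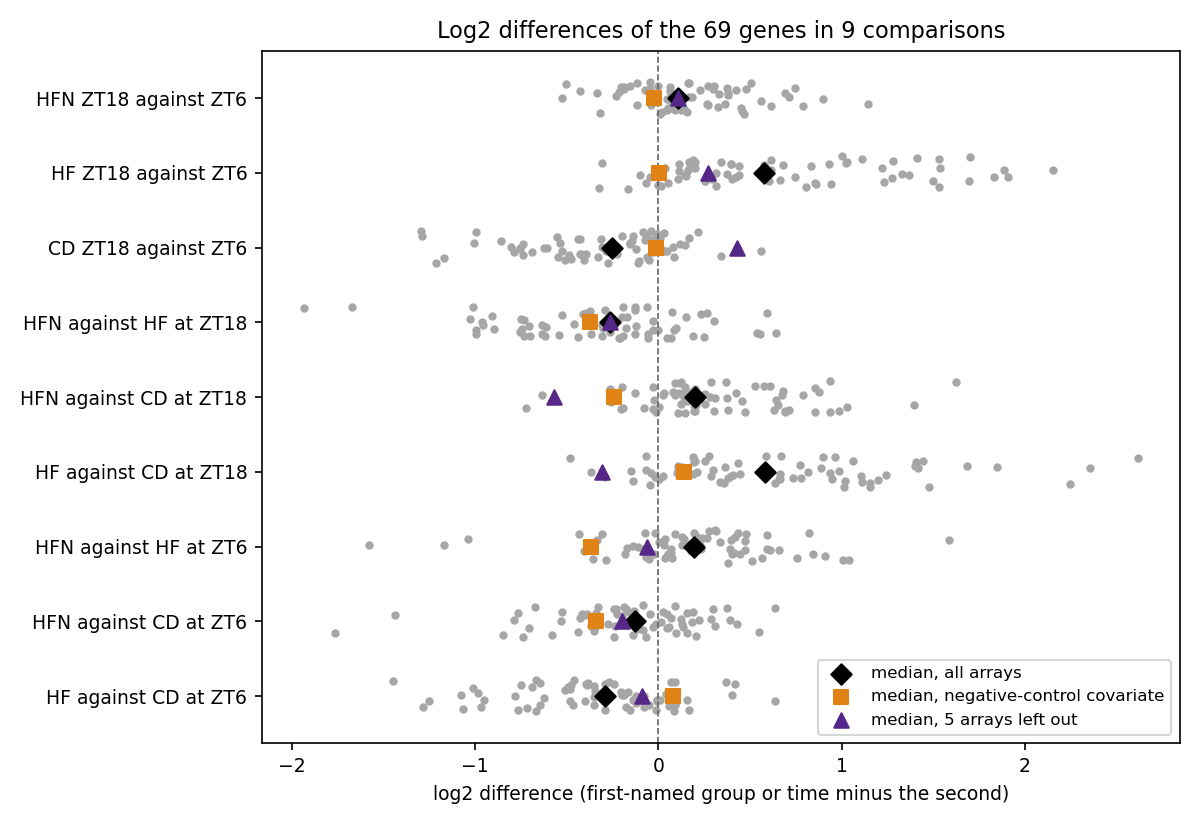
Log2 differences of the 69 genes (grey points) in 9 comparisons, the first-named group or time minus the second, with their median over all arrays (diamond), with the control median of each array as a covariate (square) and without the 5 arrays with the highest control medians (triangle). The diamonds lie between −0.29 and 0.59, and the triangle lies on the other side of 0 for CD ZT18 against ZT6, HFN against CD at ZT18, HF against CD at ZT18 and HFN against HF at ZT6.

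The members with the lowest p in HF livers were all separated between the times. Snora62, a box H/ACA RNA within Rpsa, read 8.56, 8.38 and 8.83 at ZT18 and 8.12, 7.25 and 7.32 at ZT6 in HF livers, a log2 difference of 1.03 ± 0.30 (SE, adjusted p = 0.145). In HFN livers the same gene read 7.65, 7.94 and 8.32 at ZT18 and 9.20, 8.14 and 8.08 at ZT6, and the groups overlapped. Its highest value, 9.20, came from HFN ZT6 replicate 1, an array on which most members were low.

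Snord42a read 15.93, 15.90 and 15.54 at ZT18 and 14.09, 14.04 and 13.74 at ZT6 in HF livers, a difference of 1.83 ± 0.69 (SE, adjusted p = 0.267). The HF values at the 2 times did not overlap, while in HFN livers the gene read 13.56, 15.22 and 15.60 at ZT18 and 13.27, 15.55 and 14.87 at ZT6. With a fit on the HF arrays alone, which called 1.15% of all clusters, its adjusted p was 0.0117, and that of Snord14a, a U14 RNA within Rps13, was 0.0359. Snord14a read 6.27, 6.07 and 6.19 at ZT18 and 5.55, 5.62 and 5.62 at ZT6 in HF livers (difference 0.58 ± 0.21, SE, adjusted p = 0.238). Snord14e, within Hspa8, differed by 1.53 ± 0.52 (SE, adjusted p = 0.209).

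Snord70, a box C/D RNA within Nop58, itself the gene of a core protein of box C/D particles, read 10.02, 10.13 and 9.998 at ZT18 and 8.68, 7.96 and 9.26 at ZT6 in HF livers, a difference of 1.41 ± 0.52 (SE, adjusted p = 0.248). In HFN livers it read 8.58, 9.03 and 9.83 at ZT18 and 8.79, 10.09 and 10.14 at ZT6. In CD livers it read 9.89, 7.97 and 9.32 at ZT18 and 10.65, 9.31 and 9.79 at ZT6. HF ZT6 livers thus lay below CD ZT6 livers without overlap, and HF ZT18 livers lay above CD ZT18 livers without overlap.

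In HFN livers Scarna10 had the lowest p for the change between night and day. It read 8.04, 6.78 and 6.79 at ZT18 and 6.28, 6.37 and 6.26 at ZT6, without overlap, a difference of 0.90 ± 0.26 (SE, adjusted p = 0.295). Against CD livers at ZT18, which read 6.15, 6.10 and 6.41, the difference was 0.99 ± 0.26 (SE, adjusted p = 0.0921), again without overlap. The value of 8.04 came from HFN ZT18 replicate 1, which stood apart by its lymphocyte markers. The mean log2 signal of 9 such markers was 6.06 on that array and 4.18 to 4.32 on the other 17, and 7 of the 9 had their highest value there, among them Cd79a, Ms4a1, Cd3e and Cd8a. The highest values of Scarna2, Snord17 and Snord82 came from the same array. Without it, the difference in Scarna10 was 0.48 between the times and 0.57 against CD livers (adjusted p = 0.299 and 0.10).

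The remaining members with a low p in these comparisons were not called. In HFN livers Snord82, Snord90, Snord23 and Snora62 followed, with differences between −0.51 and 0.56 (adjusted p from 0.671 to 0.809). In CD livers Snord123 (−0.43), Snord98 (−0.74), Snord93 (0.34), Snora30 (−1.01) and Snora62 (0.56) had adjusted p from 0.566 to 0.823. Snord98, a box C/D RNA within Ccar1, read 6.93, 6.57 and 6.83 at ZT18 and 7.73, 7.06 and 7.75 at ZT6 in CD livers.

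The second question was whether the high-fat diet moved the members. At ZT6, HF livers had a median log2 difference of −0.29 from CD livers, with 14 of the 69 genes higher. None was called with limma (0.044% of all clusters were), and 3 had an unadjusted p under 0.05, all lower in HF livers (1.51% of all clusters). The groups were separated for 9 members, all lower in HF livers (13.0%, against 4.79% of all clusters). The lowest p belonged to Snord98, which read 6.05, 6.80 and 6.79 in HF and 7.73, 7.06 and 7.75 in CD livers (difference −0.97 ± 0.31, SE, adjusted p = 0.568). Snord70 (−1.28), Scarna2 (−0.72), Snord64 (−0.29) and Snord49a (−1.25) followed, with adjusted p from 0.758 to 0.854. With the control median as a covariate the median over the members was 0.08.

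At ZT18 the difference had the other sign. HF livers were above CD livers by 0.59 in the median, with 58 of the 69 genes higher, against 0.00 over all clusters and 0.16 over the 139 other small nucleolar RNA clusters. Of the members 1 was called, Snord123 (0.606% of all clusters were), and 5 had an unadjusted p under 0.05 (8.87% of all clusters). The groups were separated upward for 7 members (10.1%, against 8.42% of all clusters) and downward for 1, Snora75 (7.41% of all clusters). The median was 0.18 without CD ZT18 replicate 2, 0.14 with the covariate, and −0.31 without the 5 arrays with high control medians, where CD ZT18 replicate 1, the array with the highest member median, was the 1 animal left in its group. Without CD ZT18 replicate 1, the CD array on which most members were high, 7 members were called, namely Snord123, Snora68, Snora73a, Snora73b, Snord14e, Snora7a and Snord35b, all higher in HF livers, with differences from 0.81 to 4.38, and 4.94% of all clusters were called in that fit. Both CD ZT18 arrays then left are among the 5 with high control medians.

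**Figure D5:**
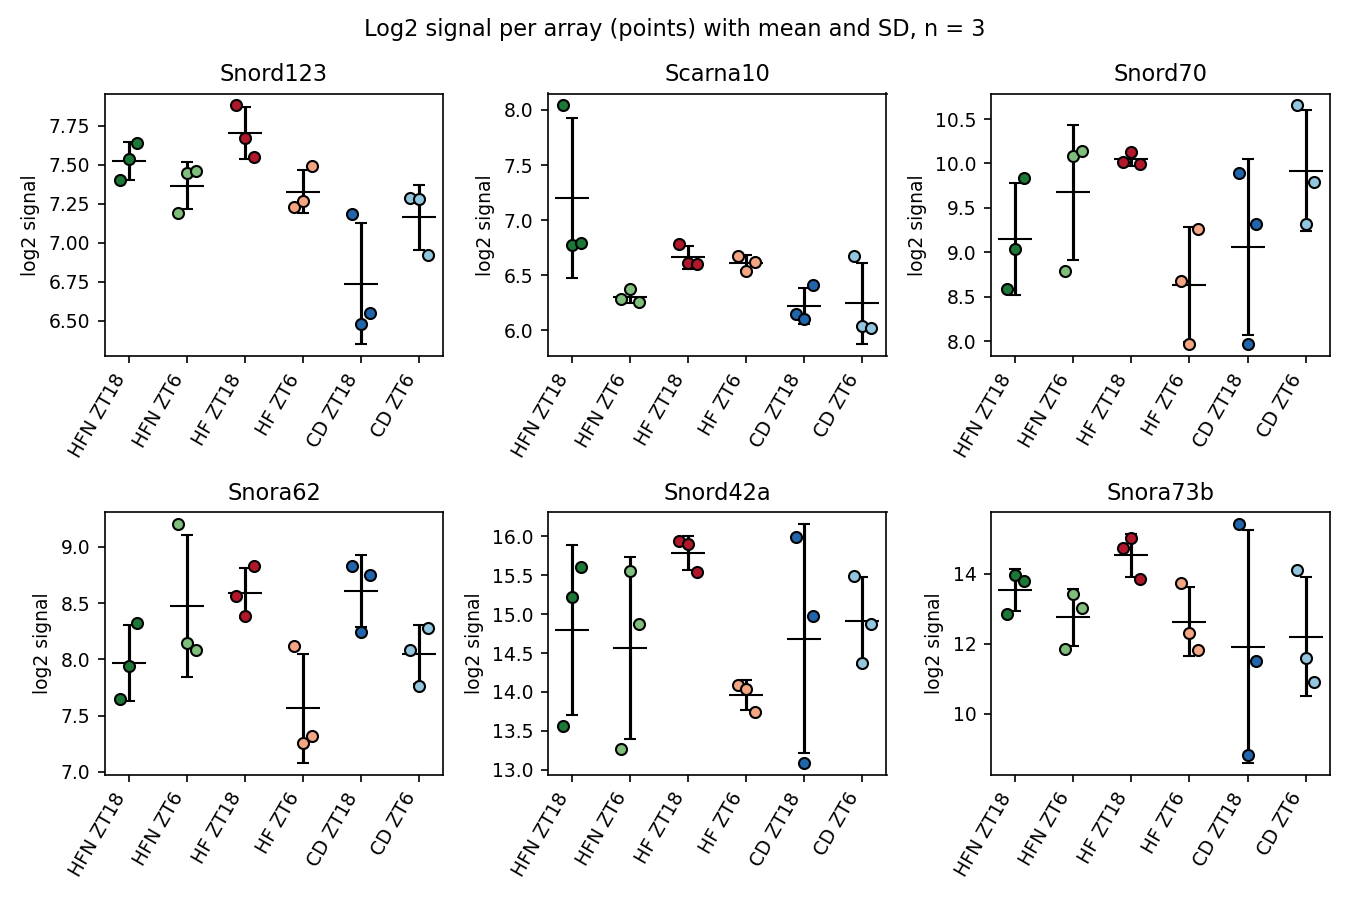
Log2 signal per array (points) of 6 members in the 6 groups, with mean and SD (n = 3 mice each), and a vertical scale for each gene that does not start at 0. Snord123 lies lower in CD ZT18 livers than in HFN and HF ZT18 livers, Scarna10 has 1 high HFN ZT18 array at 8.04, and Snora73b spans 8.82 to 15.43 within the CD ZT18 group.

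Snord123 is a box C/D RNA that lies within Snhg18, a long noncoding host gene on chromosome 15. It read 7.40, 7.54 and 7.64 in HFN, 7.88, 7.67 and 7.55 in HF and 7.18, 6.48 and 6.55 in CD livers at ZT18. At ZT6 it read 7.19, 7.45 and 7.46 in HFN, 7.23, 7.27 and 7.49 in HF and 7.29, 7.28 and 6.92 in CD livers. The 3 CD ZT18 values were below all HFN and HF values at ZT18, and the ZT6 groups overlapped. At ZT18 the difference was 0.96 ± 0.17 for HF against CD livers (SE, adjusted p = 0.0175) and 0.79 ± 0.17 for HFN against CD livers (SE, adjusted p = 0.0383), and both comparisons use the same CD arrays.

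The 2 lowest Snord123 values came from CD ZT18 replicates 2 and 3, which were among the arrays with high control medians. With the control median as a covariate the differences were 0.75 (adjusted p = 0.0934) for HF and 0.53 (adjusted p = 0.255) for HFN against CD livers, and without the 5 arrays 0.52 (adjusted p = 0.349) and 0.34 (adjusted p = 0.45), where 1 CD ZT18 animal remained. The direction was the same in all 27 alternatives tried for each comparison, but most of these could not change it. Alternatives that changed only the test, or dropped an array of another group, left the differences at 0.965 and 0.788. The HF call held in 14 of 18 fits that left out 1 array (adjusted p 0.00132 to 0.101) and the HFN call in 10 of 18 (0.00392 to 0.161). Most of the 18 dropped an array outside the compared groups. Where an array of the compared groups was dropped, the HF call held only without HF ZT18 replicate 3 or CD ZT18 replicate 1. The HFN call then held only without HFN ZT18 replicate 1 or CD ZT18 replicate 1. The HF call was lost without HF ZT18 replicate 1 or 2 or CD ZT18 replicate 2 or 3, and the HFN call without replicate 2 or 3 of HFN ZT18, HFN ZT6 or CD ZT18, or without replicate 2 of HF ZT18 or HF ZT6. In fits on the compared groups alone neither call held (adjusted p = 0.231 and 0.311), and only 0.0697% and 0.0379% of all clusters were called there. With the replicate number as a block the HFN call did not hold (0.0562). Snhg18 itself had a mean signal of 4.39, below all control medians, where little change can be measured, and was called in no comparison.

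Markers of other cells were set beside these ZT18 groups. The mean log2 signal of 10 stellate cell markers was 7.10 to 7.38 in HFN, 6.96 to 7.02 in HF and 6.76 to 6.92 in CD livers, and that of 12 Kupffer cell markers was 8.12 to 9.14 in HFN, 8.09 to 8.23 in HF and 7.50 to 8.43 in CD livers. For 10 endothelial markers it was 8.89 to 9.22 in HFN, 8.65 to 8.70 in HF and 8.37 to 8.84 in CD livers. For 3 erythroid markers it was 7.26 to 7.40 in HFN, 7.05 to 7.36 in HF and 7.66 to 7.96 in CD livers. For 10 hepatocyte markers it was 18.19 to 18.35 in HFN, 18.14 to 18.35 in HF and 18.35 to 18.74 in CD livers. These hepatocyte means lay near the upper end of the scale, and the median marker difference was 0.0 for both HF and HFN against CD livers. The erythroid and stellate means of the CD livers lay apart from those of both other groups, while Kupffer and endothelial means of HF and CD livers overlapped. Endothelial means of HFN livers lay above those of CD livers without overlap. Of all these markers, Lyve1 and Rgs5 were called with limma, for HFN against CD livers (2.25 and 0.86, with 1.06% of all clusters called). None was called for HF against CD livers (0.606% of all clusters were). There, 3 Kupffer and 1 stellate marker were higher at an unadjusted p under 0.05, and 1 endothelial, 2 erythroid and 3 hepatocyte markers were lower. Of all clusters, 8.87% passed that rule in either direction. For HFN against CD livers, 6 Kupffer, 5 stellate and 4 endothelial markers were higher by the same rule, and 2 erythroid and 2 hepatocyte markers were lower. In that comparison 6593 of 65956 clusters passed in either direction. Their part in the Snord123 difference was not tested.

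Below the threshold, Snord14a was separated between HF livers (6.27, 6.07 and 6.19) and CD livers (5.75, 5.39 and 5.38) at ZT18, with a difference of 0.66 ± 0.21 (SE, adjusted p = 0.185). Snora68, a box H/ACA RNA, read 8.54, 7.96 and 8.56 in HF and 8.22, 7.39 and 7.69 in CD livers, with overlap (difference 0.59 ± 0.20, SE, adjusted p = 0.215). Snora75, the box H/ACA RNA within Ncl, was lower in HF livers, at 6.13, 5.72 and 5.55, than in CD livers, at 6.29, 6.18 and 6.37 (−0.48 ± 0.22, SE, adjusted p = 0.377). Snord64, from the imprinted Snhg14 region, had a difference of −0.29 (adjusted p = 0.36) at signals between 4.18 and 4.90, around the control medians.

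The third question concerned NAD+ in mice on the high-fat diet. At ZT6, HFN livers had a median difference of 0.20 from HF livers, with 50 of the 69 genes higher. None was called with limma (0% of all clusters were), 3 had an unadjusted p under 0.05, all higher in HFN livers (1.58% of all clusters), and 2 were separated upward (6.39% of all clusters) and 2 downward (6.69%). The genes with the lowest p were Snora62 (0.91), Snord23 (0.66), Snora75 (0.47), Snord70 (1.04) and Snora68 (0.39), with adjusted p from 0.635 to 0.732. Snord23, within Nop53, read 7.73, 8.03 and 7.59 in HFN and 7.25, 6.93 and 7.19 in HF livers at ZT6, without overlap. With the covariate the median was −0.37, without the 5 arrays −0.06 (1 HF ZT6 animal left) and without HFN ZT6 replicate 2 −0.04, so its sign rests on single animals and on how the background of the arrays is treated.

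At ZT18, HFN livers lay below HF livers by 0.26 in the median, with 16 of the 69 genes higher. None was called with limma (0% of all clusters were), and 2 had an unadjusted p under 0.05 (2.81% of all clusters). Between these groups, 11 members were separated downward (15.9%, against 4.73% of all clusters) and 1 upward (6.28% of all clusters). Neither group held any of the 5 arrays with high control medians, and the median was between −0.41 and −0.18 when 1 array was left out and −0.37 with the covariate. The members with the lowest p were Snora75 (0.59, adjusted p = 0.857), Snord93 (−0.37, adjusted p = 0.88), Snord64 (0.27, adjusted p = 0.889), Scarna17 (−0.70, adjusted p = 0.893) and Scarna10 (0.54, adjusted p = 0.893). Scarna17 read 11.64, 12.21 and 11.86 in HFN and 12.92, 12.30 and 12.61 in HF livers, without overlap.

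Against chow, HFN livers differed by −0.13 in the median at ZT6 and by 0.20 at ZT18. At ZT6 none was called (0.0318% of all clusters were) and 1 was separated, lower in HFN livers (3.55% of all clusters). At an unadjusted p under 0.05 stood 1 member, Snord98 (−0.79, adjusted p = 1, 0.898% of all clusters lower by that rule), followed by Snora75 (0.39), Snora2b (0.38), Snord45b (−1.77) and Scarna17 (−0.53). At ZT18 Snord123 was called (1.06% of all clusters were) and 3 had an unadjusted p under 0.05, all higher in HFN livers (5.38% of all clusters). Separated members numbered 2 upward (8.45% of all clusters) and 1 downward (6.72%). Snora68 (0.53, adjusted p = 0.226), Scarna17 (−0.72, adjusted p = 0.345) and Snora62 (−0.64, adjusted p = 0.357) stood behind Snord123 and Scarna10. The ZT18 median was 0.74 without CD ZT18 replicate 1, −0.10 without CD ZT18 replicate 2 and −0.57 without the 5 arrays, where 1 CD ZT18 animal remained. The ZT6 median was 0.13 without HFN ZT6 replicate 1, −0.38 without HFN ZT6 replicate 2 and −0.34 with the covariate.

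The change between night and day was also compared between groups. HF livers had a more positive change than CD livers by 0.84 in the median, with 63 of the 69 genes above 0, none called with limma (0% of all clusters were) and 6 with an unadjusted p under 0.05, all more positive (3.43% of all clusters). The genes with the lowest p were Snord123 (0.80 ± 0.24), Snord70 (2.27 ± 0.73), Snord14a (0.91 ± 0.29), Snora68 (0.75 ± 0.28) and Snord49a (2.45 ± 0.92), each with its SE and with adjusted p from 0.464 to 0.495. The median was 0.05 with the covariate and −0.18 without the 5 arrays. HFN livers had a change that differed from that of HF livers by −0.42 in the median (0.03 with the covariate, −0.12 without the 5 arrays and −0.14 without HFN ZT6 replicate 2), with none called with limma (0% of all clusters were) and 4 with an unadjusted p under 0.05 (5% of all clusters). Snora62 (−1.53 ± 0.43), Snord23 (−1.03 ± 0.36), Snord70 (−1.94 ± 0.73), Scarna10 (0.85 ± 0.37) and Scarna9 (−1.59 ± 0.77) had the lowest p there (SE, adjusted p from 0.751 to 0.814). These comparisons share arrays with those above and are not independent of them.

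Few genes that work with the small nucleolar RNAs were called. Of 24 proteins that form or assemble the particles, 20 were measured, and 1 was called in 1 of 11 comparisons. Naf1, an assembly factor of box H/ACA particles, was lower at night in HF livers (−0.60 ± 0.12, SE, adjusted p = 0.0333), where it read 7.95, 7.86 and 7.90 at ZT18 and 8.43, 8.61 and 8.46 at ZT6. Naf1 thus moved opposite to most members in the same comparison, in which 0.866% of all clusters were called. In the other comparisons 0 of 20 passed, with 0 to 3 at an unadjusted p under 0.05 in each direction. By comparison, 1398 to 6593 of 65956 clusters passed that rule in either direction.

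Of 25 genes of the nucleolus and RNA polymerase I, 21 were measured, and 2 were called, both lower at ZT18 in CD livers (0.376% of all clusters were called there). Ubtf, a transcription factor of RNA polymerase I, read 7.64, 7.35 and 7.43 at ZT18 and 7.99, 7.80 and 8.03 at ZT6 (−0.46 ± 0.09, SE, adjusted p = 0.0275). Xrn2, an exonuclease that trims RNA from its 5′ end, read 9.63, 8.97 and 9.20 at ZT18 and 10.19, 9.96 and 9.84 at ZT6 (−0.73 ± 0.15, SE, adjusted p = 0.0495). Both were lowest on CD ZT18 replicate 2, one of the arrays with high control medians. In the other 10 comparisons 0 of 21 passed, with 0 to 4 at an unadjusted p under 0.05 in each direction (1398 to 6593 of 65956 clusters in either direction).

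Among the 34 measured hosts of members, 1 was called, Nop53, the host of Snord23 and the gene of a protein of large ribosomal subunit assembly. It was lower at ZT18 in CD livers, at 7.10, 7.02 and 6.95, than at ZT6, at 7.64, 7.52 and 7.47 (−0.52 ± 0.09, SE, adjusted p = 0.0219). Of all clusters, 0.376% were called in that comparison. Snord23 read 7.93, 6.82 and 7.25 at ZT18 and 7.73, 7.55 and 7.15 at ZT6 in the same livers, with overlap. In the other comparisons 0 of 34 passed, with 0 to 4 at an unadjusted p under 0.05 (1398 to 6593 of 65956 clusters, in either direction). From a wider list of 52 coding genes known to host small nucleolar RNAs, 27 were measured. Mif4gd was higher at ZT18 in all 3 groups (0.72 in HFN, 0.59 in HF and 0.59 in CD livers), where 0.246%, 0.866% and 0.376% of all clusters were called. Kpna4 differed upward in HF against CD livers at ZT18 (0.61, adjusted p = 0.014, with 0.606% of all clusters called). Rps20 was higher in HFN than in CD livers at ZT18 (0.47, adjusted p = 0.046, with 1.06% of all clusters called). From a list kept for long noncoding hosts, 8 were measured, of which Cwf19l1 is protein-coding. None of the 8 passed in any comparison. At an unadjusted p under 0.05 stood 2, both higher in HFN than in CD livers at ZT18 (5.38% of all clusters were higher by that rule).

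Of 31 other small noncoding RNAs, 23 were measured and none was called. In HF livers at ZT18 against ZT6, 7 had an unadjusted p under 0.05, all higher (3.57% of all clusters were higher by that rule). Their median difference in that comparison was 0.49, beside 0.58 for the members. Elsewhere 0 to 4 had an unadjusted p under 0.05 in each direction (1398 to 6593 of 65956 clusters in either direction). Rnu3a, a U3 RNA that works in cleavage of the ribosomal precursor, ranged over 2.01 and followed the members at r = 0.77 over 18 arrays. Rny1, a Y RNA, ranged over 2.69 and followed them at 0.71, whereas Rpph1, the RNA of ribonuclease P, ranged over 1.26 and did not (r = −0.38).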

How the data were processed

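Liver RNA of 18 mice (3 per group) was extracted with TRIzol, cleaned on silica columns, labelled along whole transcripts and hybridized to Clariom D mouse arrays. The deposited log2 values were made by the authors with the Transcriptome Analysis Console at its default parameters. How probes were summarized, and on which genome build, is not given in the sources used here. Silica columns recover short RNAs less completely than long ones, and that effect was not tested. Control probe sets (6732 of 72688 entries) were left out of the tests, and the 5222 negative-control sets gave each array's background. All 69 symbols were matched to RefSeq, whose table carries no strand, so host genes were assigned by span alone. No sequence of a member was at hand, so none is printed.

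A group-means model was fitted to all 65956 clusters with limma 3.58.1 in R 4.3.3 (residual df 12, prior df 2.27), with Python 3.11.15 for the rest, and checked on simulated data. The number of arrays, 3 a group, limits the precision. The genes named in a comparison are the 5 members with the lowest p, together with members of extreme range or signal. Members, gene lists and tests were chosen with earlier results of these data known. Alternatives were another fit, normalization or filter, a replicate block, the control median as a covariate, and leaving out arrays. Replicate numbers did not pair the samples, since deviations of same-numbered arrays correlated at 0 on average (−0.51 to 0.57 over 45 pairs). Cholangiocyte and neutrophil markers, and 6 nuclear long noncoding RNAs, gave no call in 11 comparisons.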

Additional observations from a re-analysis of the deposited data

Results flagged for a closer look

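Snord70 was set apart because its diet groups separated in opposite directions at the 2 times. HF livers lay above CD livers at ZT18 by 0.99 on the log2 scale, and below them at ZT6 (−1.28), with no overlap of the 3 animals per group at either time. The test of that difference itself gave 2.27 with an adjusted p of 0.484 (limma), which did not pass. Both the HF ZT6 and the CD ZT18 group hold 2 of the 5 arrays with high control medians. Without those 5 arrays, which left 1 CD ZT18 and 1 HF ZT6 animal, the HF minus CD difference of Snord70 was 0.16 at ZT18 and −1.30 at ZT6, and the difference between them was 1.46.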

How the results depend on the processing

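Over 11 comparisons and 55 named member results, no alternative turned a called direction, though many of them could not change a difference at all. At an unadjusted p the counts, of 69 members, were 2, 11 and 2 for the difference between the times in HFN, HF and CD livers. Of 65956 clusters, 2708, 5825 and 2738 passed there. Member counts were 3 at ZT6 and 5 at ZT18 for HF against CD (2216 and 5847 clusters). They were 3 and 2 for HFN against HF (2685 and 1851 clusters), and 1 and 3 for HFN against CD (1398 and 6593 clusters). For the changes between groups they were 6 and 4 (5330 and 3297 clusters). A fit on the compared groups alone called 2 members (1.15% of all clusters) in HF livers between the times. At ZT18 it called 0 for HF against CD (0.0697% of all clusters) and 0 for HFN against CD (0.0379%). With the control median as a covariate, or without the 5 arrays chosen after seeing the data, those ZT18 counts were also 0. For HFN against CD at ZT18, quantile normalization gave 0 and the replicate block 0, the block changing no other call.

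Median differences with the covariate were 0.001 (HF livers between the times), −0.365 (HFN against HF at ZT6), 0.138 and −0.241 (HF and HFN against CD at ZT18), and 0.051 and 0.029 (changes between groups). Without the 5 arrays, which left 1 animal in the CD ZT18 group, they were 0.427 (CD livers between the times), −0.305 and −0.571 (HF and HFN against CD at ZT18) and −0.184 (change, HF against CD). With shared clusters added, also after seeing the data, that last median was 0.397. The causes were not tested.

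Leaving out 1 array gave 0 to 1 calls for CD livers between the times and 0 to 7 for HF against CD at ZT18. It gave 0 to 2 for HFN against CD at ZT18 and 0 to 1 for the change in HF against CD. The highest count came each time without CD ZT18 replicate 1, with Snord123 among the calls in each and Snora68 beside it in HFN against CD livers. In that fit 0.872%, 4.94%, 3.57% and 0.274% of all clusters were called, in the same order of comparisons. Medians spanned −0.713 to 0.094, 0.184 to 0.862, −0.102 to 0.74 and 0.511 to 1.302 in these comparisons. With 3 arrays a group and a median SE of 0.43, differences well under 1 could seldom be resolved.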
